A study of Mus musculus with 6 samples.

Results

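The 57 genes described here encode the machinery that copies nuclear DNA, from the proteins that mark and load origins to those that build, run and protect the replication fork. They were chosen by gene name and are 57 of the 55450 genes in the count files. By role, 15 act in licensing, 11 in initiation, 12 are polymerase subunits, 12 belong to the sliding clamp, its loaders, single-strand binding and Okazaki fragment maturation, and 7 protect the fork or assemble chromatin behind it. Bulk RNA-Seq measured hepatocytes from mice labelled C57BL/6, and given as male C57BL/6J in the methods, at 0 h, with the liver undamaged, and at 48 h after partial hepatectomy (PHx), the surgical removal of part of the liver. Each time had 3 libraries. The methods describe separate hepatocyte preparations from different mice. All mice ate normal diet and were 10 to 12 weeks old according to the labels. Hepatocytes of both times were released by collagenase perfusion, and no sham-operated group was analysed here, so the effects of surgery and of tissue loss cannot be told apart.

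Replication begins when the origin recognition complex (ORC), Cdc6 and Cdt1 load the MCM2-7 helicase onto DNA during G1 phase. The kinase Cdc7 with Dbf4, together with Cdc45, GINS and their helpers, then turns the loaded helicase into an active fork, where polymerases alpha, delta and epsilon copy the strands. Mature hepatocytes are mostly quiescent, and resection is a classical trigger of DNA synthesis in them.

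Gene counts per library ranged from 31419443 to 36346220. A count of 3, used as the detection floor, was worth 0.0825 to 0.0955 CPM, the usual unit that scales every library to a common total. Reads in no gene were 24.3% to 32.7% of all reads tallied in a file, and mitochondrial genes took 5.42% to 6.66% of gene counts. With scaling by library size alone, the 8 hepatocyte markers summed to 9% to 10.8% of gene counts at 0 h and 6.69% to 7.2% at 48 h. The 10 Kupffer cell markers summed to 73.2 to 110 CPM at 0 h and 114 to 150 CPM at 48 h, and the 10 endothelial markers to 246 to 380 CPM and 190 to 227 CPM. The 10 stellate cell markers gave 74 to 122 CPM and 71.4 to 92 CPM, the 8 cholangiocyte markers 33.3 to 59 CPM and 50.8 to 64.8 CPM, and the 10 lymphocyte markers 2.61 to 3.64 CPM and 2.69 to 4.35 CPM. The 8 erythroid markers went from 55.1 to 83.4 CPM at 0 h to 20.1 to 45.5 CPM at 48 h, with Hbb-bt at 0 in every library. The 10 neutrophil markers summed to 0.11 to 0.382 CPM at 0 h and 0.665 to 1.16 CPM at 48 h. Ltf, Mpo and Retnlg were at 0 in every library. Hepatocyte, Kupffer, endothelial, neutrophil and erythroid sums did not overlap between the times, and their part in the results below was not tested.

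Values from here on are CPM scaled by the trimmed mean of M values (TMM) unless another unit is named. The transcripts of the replication machinery were far more abundant 48 h after PHx than in undamaged liver. Of the 57 genes, 52 were higher at 48 h, 1 was lower (Mcm10) and 4 did not pass the test (Orc3, Orc4, Orc5 and Pold4) in the quasi-likelihood test of edgeR, adjusted by Benjamini-Hochberg over 17037 genes. Of all genes tested, 21.4% were higher and 19.3% lower. The median log2 fold change of the 57 genes was 2.73, ranging from -0.77 to 6.58, where the median of all genes tested was -0.0033. The adjusted p of the 52 genes in edgeR's test ranged from 1.75e-08 to 0.0206. A log2 fold change over 1 was reached by 49 of the 52, against 9.69% of all genes tested, and 14 were over 4. The 3 libraries of one time did not overlap those of the other in 53 of the 57, against 52.7% of all genes tested. In bulk samples such as these, a larger share of cells with a transcript and more of it per cell cannot be told apart.

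All 57 genes passed the filter of 10 counts in at least 3 libraries. Of them, 47 had 10 counts in every 0 h library, 5 in only 1 or 2, and 5 in none: Ticrr, Cdc7, Pole2, Fen1 and Clspn. Those last 5 passed through their 48 h libraries alone and so had to differ, which makes their calls and their separation a description. With the filter applied again to 5 libraries, they failed it whenever a 48 h library was left out, and 46 or 47 members were then called higher. The lowest count of any member was 2 at 0 h and 40 at 48 h.

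**Figure D1:**
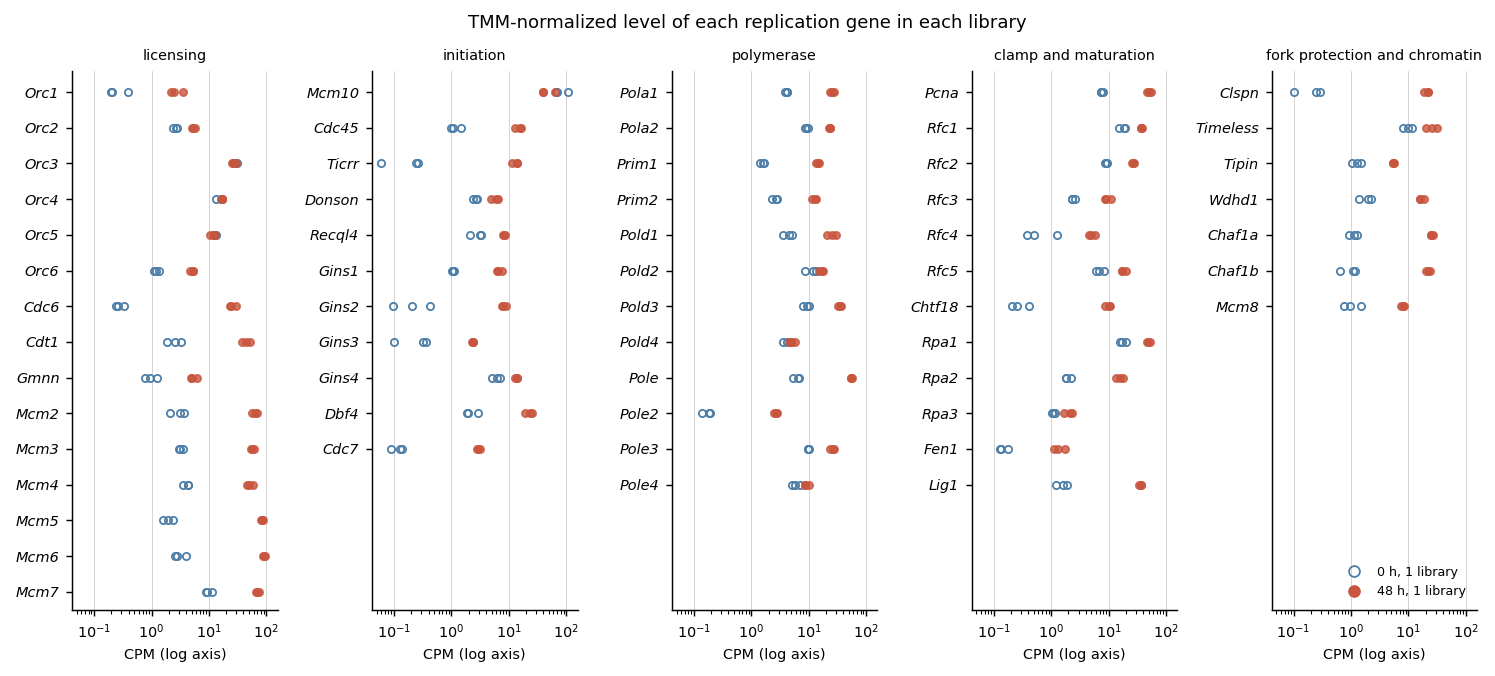
Each row is one gene and each point one library, with TMM-normalized CPM on a log axis, 0 h as open blue and 48 h as filled red points, in 5 panels by role. In 52 genes the 3 red points lie to the right of the 3 blue ones, while for Mcm10 they lie to the left.

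Promoter sequence was examined because E2F factors are textbook regulators of S phase genes. RefSeq promoter windows of 300 bases on GRCm38.p6, from 250 before to 50 after the start, were found for 47 of the 57. The members with no window were Tipin, Gmnn, Gins1, Rfc2, Gins2, Pole, Gins4, Recql4, Prim2 and Mcm4. The E2F motif searched was TTT, then 2 bases each G or C, then CGC, on both strands. It occurred in 18 of the 47 windows, or 38.3%, against 2.6% of all 27025 genes with a window and 4.5% of the 10954 tested genes with one. The 5 stretches that follow are shown because they hold the motif before the start, lie outside annotated exons of their own gene, and come from genes with large, middling and no called responses. Capitals mark the motif, and each runs 5′ to 3′ on the gene's strand.

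Cdc6, chr11:98907983-98908050, plus strand, within an annotated intron of the gene, which has an earlier start:
Cdc6: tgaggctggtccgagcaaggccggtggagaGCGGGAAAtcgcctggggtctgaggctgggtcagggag
Mcm5, chr8:75109326-75109397, plus strand, upstream of the gene, with 2 overlapping matches:
Mcm5: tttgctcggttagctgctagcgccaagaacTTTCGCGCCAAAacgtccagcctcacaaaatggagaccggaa
Mcm6, chr1:128359715-128359845, minus strand, upstream of the gene, with 3 matches of which 2 overlap:
Mcm6: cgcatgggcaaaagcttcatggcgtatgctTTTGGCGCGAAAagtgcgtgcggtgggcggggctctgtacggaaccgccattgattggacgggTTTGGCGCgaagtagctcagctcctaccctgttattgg
Pola1, chrX:93632256-93632323, minus strand, upstream of the gene:
Pola1: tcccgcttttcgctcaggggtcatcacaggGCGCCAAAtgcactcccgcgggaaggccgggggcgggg
Orc3, chr4:34614946-34615013, minus strand, upstream of the gene:
Orc3: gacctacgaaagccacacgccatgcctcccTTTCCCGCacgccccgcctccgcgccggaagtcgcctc

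Genes with the E2F motif ran from Clspn at a log2 fold change of 6.58 to Orc3 at -0.10, with a median of 3.24, and the 29 genes without it ran from -0.77 to 6.14, with a median of 2.06. Counting only matches before the start, the medians were 2.98 for the 10 genes with the motif and 2.85 for the 37 without it. Other motifs were searched as well on both strands. CCAAT was in 57.4% of the members' windows against 41.1% of all and 42.7% of tested genes, and the GC box GGGCGG in 76.6% against 38.2% of all and 64.4% of tested genes. The CHR element, TTTGAA or TTCGAA, was in 19.1% against 21.7% of all and 17.1% of tested genes. A match describes letters in a window and is not evidence of binding.

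**Figure D2:**
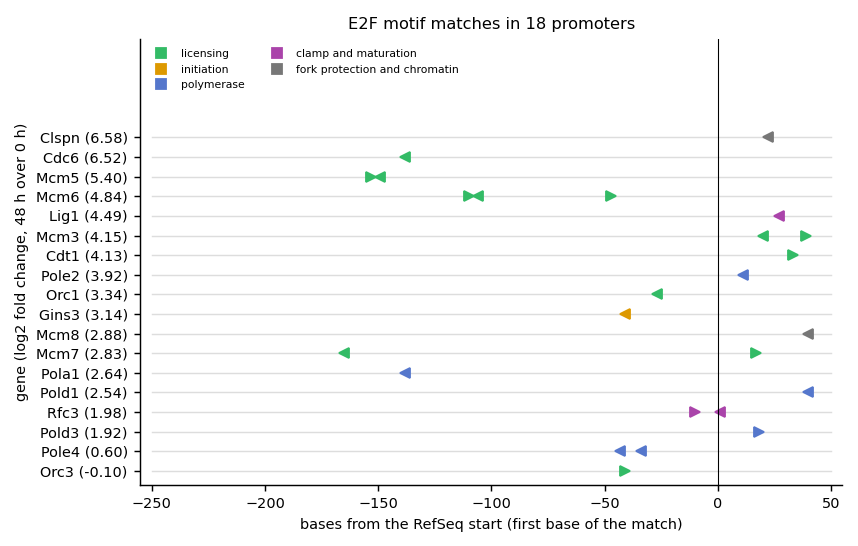
Triangles mark the first base of each E2F motif match in 18 promoters, by bases from the RefSeq start, pointing right for the gene's strand and left for the opposite one, with genes ordered by log2 fold change and coloured by role. Matches lie on either side of the start, and those of Pole4 are a single site counted from 2 RefSeq starts.

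Licensing genes split by complex. All 6 MCM2-7 subunits were higher at 48 h, as were Cdc6, Cdt1 and the Cdt1 inhibitor Gmnn, but only 3 of the 6 ORC subunits were. ORC is the platform on which the helicase is loaded. Orc1, an ATPase subunit, measured 0.204, 0.193 and 0.392 CPM at 0 h and 3.53, 2.46 and 2.17 CPM at 48 h, a log2 fold change of 3.34 ± 0.348 (SE, n = 3 per time; edgeR adjusted p = 4.19e-05). Orc6 measured 1.09, 1.19 and 1.36 CPM at 0 h and 5.23, 5.31 and 4.66 CPM at 48 h, a log2 fold change of 2.06. Every 48 h library was above every 0 h library for both genes. Orc2 measured 2.72, 2.80 and 2.41 CPM against 5.37, 5.15 and 5.83 CPM, a log2 fold change of 1.04 ± 0.169 (edgeR adjusted p = 7.51e-04), and 29.8% of its exon bases overlap Nif3l1 on the opposite strand.

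Per exon length, the other subunits had the highest ORC levels in undamaged liver, at 4.77 RPKM (CPM per exon kilobase) for Orc3, 2.10 RPKM for Orc4 and 2.07 RPKM for Orc5. Orc3 measured 27.7, 28.4 and 31.0 CPM at 0 h and 25.2, 29.3 and 26.7 CPM at 48 h (log2 fold change -0.10 ± 0.106, edgeR adjusted p = 0.482). Orc4 measured 13.2, 17.1 and 16.6 CPM and then 17.2, 16.6 and 16.8 CPM (0.11 ± 0.126, edgeR adjusted p = 0.532). Orc5 measured 12.3, 12.5 and 13.6 CPM and then 10.4, 12.7 and 12.4 CPM (-0.11 ± 0.128, edgeR adjusted p = 0.516). For each of these genes the libraries of both times overlapped.

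Cdc6, the ATPase that works with ORC to load the helicase, went from 0.238, 0.258 and 0.331 CPM at 0 h to 29.6, 24.5 and 23.2 CPM at 48 h, a log2 fold change of 6.52 ± 0.203 (edgeR adjusted p = 1.96e-08). Cdt1, which brings MCM2-7 to the origin, measured 3.20, 1.84 and 2.56 CPM and then 52.0, 43.9 and 37.2 CPM (log2 fold change 4.13). Geminin (Gmnn), the inhibitor of Cdt1, measured 1.23, 0.773 and 0.934 CPM and then 5.17, 6.18 and 4.94 CPM (log2 fold change 2.47). None of these 3 genes had overlapping libraries.

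The MCM2-7 genes encode the ring-shaped helicase core, and rose by log2 fold changes between 2.83 and 5.40. Mcm5 rose the most of the 6, from 1.91, 1.61 and 2.41 CPM to 83.4, 85.9 and 81.8 CPM (5.40 ± 0.151, edgeR adjusted p = 1.75e-08). Mcm7 rose the least, from 11.3, 9.38 and 8.85 CPM to 74.1, 69.2 and 66.2 CPM (2.83 ± 0.123, edgeR adjusted p = 8.71e-08). Mcm7 had the highest 0 h level of the 6 per exon length, and 23.3% of its 50-base stretches also occur in other genes, most of all in Gm5487. The log2 fold changes of the others were 4.84 for Mcm6, 4.40 for Mcm2, 4.15 for Mcm3 and 3.66 for Mcm4.

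Initiation genes rose in 10 of 11 cases. Ticrr, a scaffold that helps recruit Cdc45, measured 0.238, 0.258 and 0.0602 CPM at 0 h and 13.99, 14.04 and 11.3 CPM at 48 h, a log2 fold change of 6.14 ± 0.304. Its 0 h replicate 3 was under the detection floor. Cdc45, the helicase cofactor, rose by 3.65, Recql4 by 1.53 and Donson by 1.16 on the log2 scale.

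Mcm10, which helps activate the loaded helicase, was the exception. It measured 109, 65.7 and 67.9 CPM at 0 h and 39.1, 39.6 and 63.7 CPM at 48 h, and fell by 0.77 ± 0.230 on the log2 scale (edgeR adjusted p = 0.0222). The highest 48 h library and the lowest 0 h library were separated by a narrow gap. The call was lost without 0 h replicate 1 (-0.50, adjusted p = 0.0881), without 48 h replicate 1 (-0.65, adjusted p = 0.0686) and without 48 h replicate 2 (-0.65, adjusted p = 0.0827) in edgeR's test, and with scaling by library size alone (-0.56, adjusted p = 0.0809). It held 20.0% to 29.0% of all member counts at 0 h and 2.85% to 4.96% at 48 h. Of its 10 annotated transcripts, 7 are retained-intron forms, and which of them the counts come from was not tested.

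GINS is the 4-subunit clasp that joins Cdc45 and MCM2-7. Gins2 measured 0.204, 0.0967 and 0.422 CPM at 0 h and 7.75, 8.84 and 7.85 CPM at 48 h (log2 fold change 5.04 ± 0.329), with 67.3% of its exon bases overlapped by Gse1 on the opposite strand. Without 0 h replicate 3 its log2 fold change was 5.73. Gins4, with the highest 0 h level of the 4 per exon length, measured 6.98, 5.06 and 6.29 CPM and then 13.7, 13.8 and 12.7 CPM (1.13 ± 0.149). Gins3 and Gins1 rose by 3.14 and 2.65 on the log2 scale.

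Dbf4 and Cdc7 form the kinase that triggers origin firing. Cdc7, its catalytic subunit, measured 0.136, 0.129 and 0.0903 CPM at 0 h and 2.94, 3.16 and 2.83 CPM at 48 h (log2 fold change 4.62). Dbf4, the activating subunit, measured 1.97, 2.90 and 1.90 CPM and then 25.6, 23.2 and 18.8 CPM (3.32). Dbf4 was separated between the times in every library. Cdc7 was as well, but it passed the filter through 48 h alone, so its separation was fixed in advance.

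Polymerase subunits rose in 11 of 12 cases, with a median log2 fold change of 2.11. Within polymerase alpha-primase, which lays down primers, Prim1 went from 1.43, 1.64 and 1.63 CPM to 14.7, 15.1 and 13.6 CPM (log2 fold change 3.20 ± 0.152). Pola2 rose the least of the 4, from 9.67, 8.54 and 9.06 CPM to 22.9, 23.5 and 23.3 CPM (1.35 ± 0.111). Pola1, the catalytic subunit, and Prim2 rose by 2.64 and 2.29 on the log2 scale.

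Polymerase delta copies the lagging strand. Its catalytic subunit Pold1 measured 4.56, 3.54 and 5.15 CPM at 0 h and 30.2, 25.9 and 21.2 CPM at 48 h (log2 fold change 2.54 ± 0.180), and Pold3 rose by 1.92. Pold4, the small accessory subunit, measured 4.87, 3.61 and 4.25 CPM and then 5.67, 4.95 and 4.57 CPM, with overlapping libraries (0.26 ± 0.178, edgeR adjusted p = 0.281). The annotation places another gene on the same strand over 24.6% of its exon bases. Pold2 changed by 0.55 ± 0.163 (edgeR adjusted p = 0.0206), a call lost without 48 h replicate 1 (0.51, adjusted p = 0.0578) and without 48 h replicate 2 (0.54, adjusted p = 0.0585) in edgeR's test.

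Polymerase epsilon copies the leading strand and is part of the helicase assembly. Pole2 measured 0.136, 0.193 and 0.181 CPM at 0 h and 2.67, 2.80 and 2.46 CPM at 48 h (log2 fold change 3.92 ± 0.286), and the catalytic subunit Pole rose by 3.14. The histone-fold subunits moved less. Pole3 measured 9.60, 9.64 and 10.1 CPM and then 26.2, 27.7 and 23.7 CPM (1.40 ± 0.114). Pole4 measured 5.82, 5.22 and 7.02 CPM and then 9.95, 8.75 and 8.77 CPM (0.60 ± 0.155, edgeR adjusted p = 0.0107).

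All 12 genes of the clamp and maturation group were higher at 48 h. Pcna, the sliding clamp, measured 7.39, 7.44 and 7.98 CPM at 0 h and 45.9, 55.1 and 50.5 CPM at 48 h (log2 fold change 2.73 ± 0.115). Of its 50-base stretches, 19.1% also occur in other genes, most of all in Pcna-ps2. The clamp loader RFC rose by 1.04 to 2.85 on the log2 scale over 5 subunits. Rfc4 measured 1.26, 0.387 and 0.512 CPM and then 5.79, 5.03 and 4.66 CPM, and the large subunit Rfc1 measured 18.7, 15.4 and 19.5 CPM and then 38.0, 36.2 and 36.1 CPM. Without 0 h replicate 1 the log2 fold change of Rfc4 was 3.50. Chtf18, of the alternative loader that serves sister chromatid cohesion, rose from 0.408, 0.258 and 0.211 CPM to 10.5, 10.2 and 8.77 CPM (5.07 ± 0.245).

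RPA coats single-stranded DNA. Rpa2 measured 1.80, 2.26 and 1.84 CPM at 0 h and 18.2, 16.0 and 13.7 CPM at 48 h (log2 fold change 3.02 ± 0.172). Rpa3, the smallest subunit, measured 1.16, 1.06 and 1.05 CPM and then 1.69, 2.29 and 2.11 CPM (0.90 ± 0.231, edgeR adjusted p = 0.0107). That call was lost without 48 h replicate 2 when the genes tested were kept the same (0.79, edgeR adjusted p = 0.0531). Rpa1 lay between them at 1.45.

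Okazaki fragments are trimmed by the nuclease Fen1 and sealed by the ligase Lig1. Lig1 measured 1.63, 1.19 and 1.90 CPM at 0 h and 33.8, 36.3 and 36.2 CPM at 48 h (log2 fold change 4.49 ± 0.165). Fen1 measured 0.136, 0.129 and 0.181 CPM and then 1.34, 1.73 and 1.14 CPM (3.20 ± 0.352). Fen1 levels are uncertain, since 84.2% of its exon bases are overlapped by genes on the opposite strand.

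The 7 fork protection and chromatin genes were all higher at 48 h. Clspn, the adaptor of the replication checkpoint, rose from 0.102, 0.290 and 0.241 CPM to 21.8, 22.3 and 18.4 CPM (log2 fold change 6.58 ± 0.246). Timeless and Tipin form the complex that steadies the fork. Timeless measured 11.6, 9.99 and 7.98 CPM and then 31.8, 25.7 and 20.1 CPM (1.39), and Tipin measured 1.498, 1.29 and 1.02 CPM and then 5.29, 5.62 and 5.34 CPM (2.09). Wdhd1, which ties polymerase alpha to the helicase, rose by 3.17, and Mcm8, a helicase relative used in recombination, by 2.88.

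Chaf1a and Chaf1b are the large subunits of the histone chaperone CAF-1. Chaf1a measured 1.29, 0.935 and 1.14 CPM at 0 h and 26.8, 24.4 and 24.6 CPM at 48 h, and Chaf1b measured 0.647, 1.10 and 1.17 CPM and then 19.9, 23.5 and 21.5 CPM. Their log2 fold changes were 4.49 and 4.46. Ubxn6 overlaps 52.5% of the Chaf1a exon bases on the opposite strand.

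**Figure D3:**
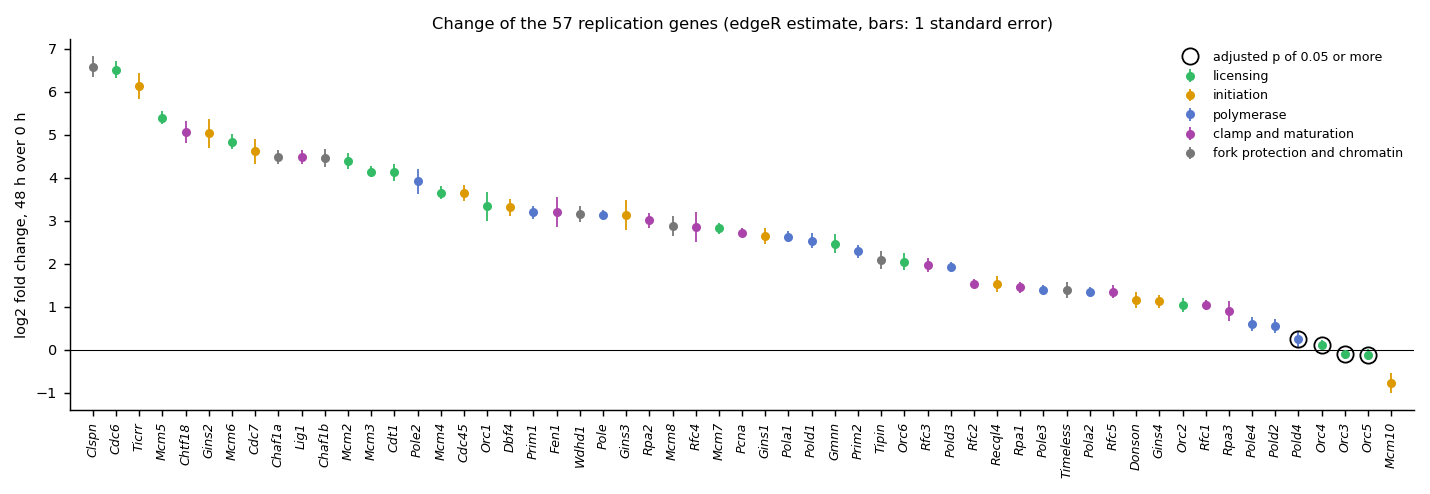
Points show the edgeR log2 fold change of each gene at 48 h over 0 h with 1 standard error, in descending order and coloured by role, and black rings mark the 4 genes that did not pass the test. The series runs from Clspn at 6.58 to Mcm10 at -0.77.

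Per exon kilobase (RPKM), the subunits of most complexes stood closer together at 48 h. In undamaged liver the ORC subunits spanned 63.1-fold, from Orc1 at 0.0756 to Orc3 at 4.77 RPKM, and at 48 h they spanned 5.69-fold. With the longest coding transcript as length, an alternative added after seeing the data, those spans were 144.7-fold and 13.0-fold. The standard deviation of log2 RPKM over subunits, averaged over libraries, went from 2.15 to 0.84 for ORC, from 3.03 to 1.51 for GINS and from 2.81 to 1.57 for polymerase epsilon. It went from 1.17 to 0.46 for polymerase delta, from 1.14 to 0.45 for RFC, from 0.89 to 0.43 for MCM2-7 and from 0.67 to 0.34 for polymerase alpha-primase. For these 7 complexes the libraries of both times did not overlap. RPA was the exception, at 1.19 and 1.18 with overlapping libraries. Over all 57 genes the same measure went from 2.19 to 1.27 without overlap, a value that includes these subunits. Among the polymerase epsilon subunits, Pole2 was the lowest at 0 h, at 0.059 RPKM. Orc1 of ORC had 6, 6 and 13 counts at 0 h. In GINS, Gins2 had 6, 3 and 14 counts at 0 h and Gins3 had 3, 10 and 12. Genes near the floor at 0 h add counting error to the 0 h spread, and its size was not tested.

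**Figure D4:**
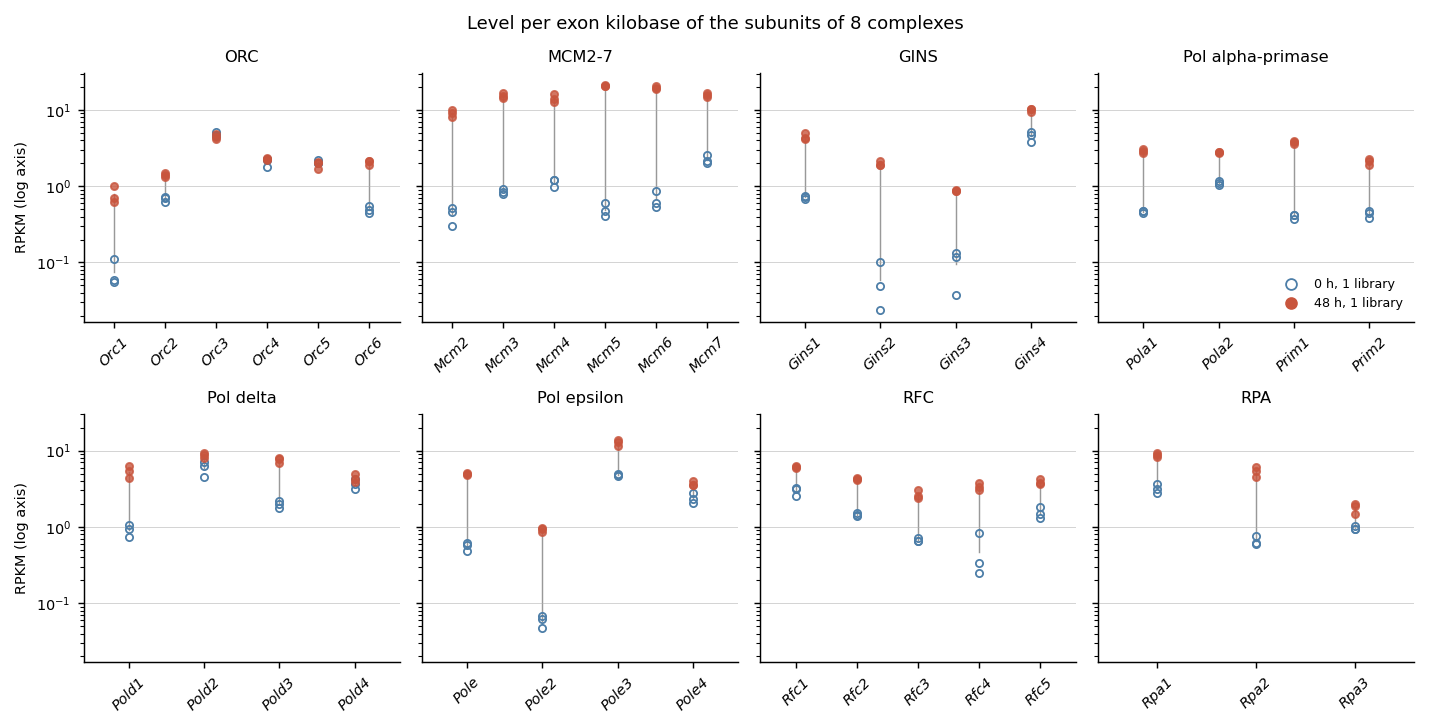
RPKM of each subunit in 8 complexes on a log axis, with 0 h as open blue and 48 h as filled red points, 1 per library, and a grey line joining the means. Red points of a complex lie closer together than blue ones except in RPA, and the points of Orc3, Orc4 and Orc5 overlap between the times.

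Ratios between partner genes within a library did not overlap between the times for 9 of the 10 pairs compared. Single genes did not overlap in 52.7% of all genes tested, and the share among other gene pairs was not computed. The smallest p that 3 against 3 libraries allow in an exact permutation test is 0.1, two-sided, and those 9 pairs reached it, with 0.111 after Benjamini-Hochberg adjustment over 10 pairs, so none could pass 0.05. The log2 ratio of Cdt1 to its inhibitor Gmnn was 0.27, 0.13 and 0.34 at 0 h and 2.23, 1.72 and 1.81 at 48 h. The difference of the mean log2 ratio, 48 h less 0 h, was 1.67 for that pair, 2.45 for Pole2/Pole3, 2.29 for Orc1/Orc2, 2.28 for Pold1/Pold4, 2.13 for Rpa2/Rpa3, 1.94 for Rfc4/Rfc1 and 1.93 for Orc6/Orc4. It was -1.17 for Dbf4/Cdc7 and -0.71 for Timeless/Tipin. The pairs were set by name, among members chosen with earlier results of these data known, and no count filter was applied to them. Rfc4/Rfc1, Rpa2/Rpa3 and Pold1/Pold4 set the largest change of a complex against its smallest, so their differences restate those log2 fold changes. Some pairs rest on few 0 h counts. Pole2 had 4, 6 and 6, Cdc7 4, 4 and 3, Orc1 6, 6 and 13 and Rfc4 37, 12 and 17. Chaf1b/Chaf1a differed by 0.01, with overlapping libraries (exact permutation p = 1).

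**Figure D5:**
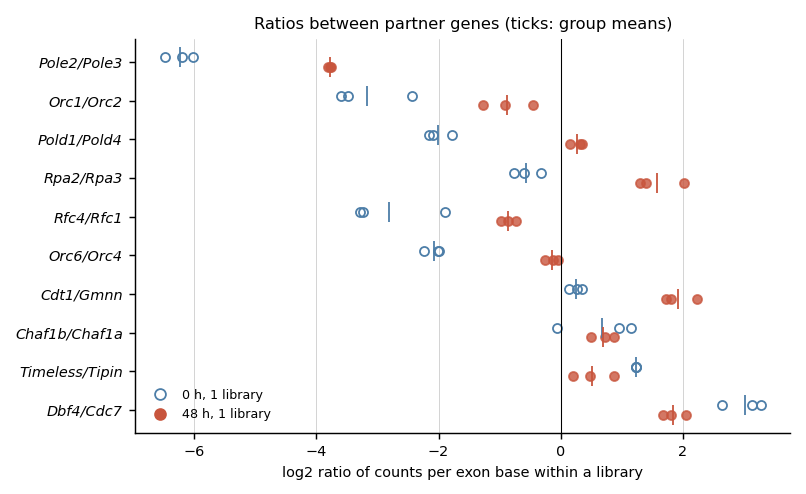
Log2 ratio of counts per exon base for 10 gene pairs within each library, 0 h as open blue and 48 h as filled red points, with ticks at the group means. The points of both times are apart in 9 pairs and mixed for Chaf1b/Chaf1a.

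The summed RPKM of the 57 genes was 83.8, 69.0 and 78.1 at 0 h and 324.7, 322.9 and 300.1 at 48 h, a 4.10-fold difference of the means with no overlap. Their share of all gene counts was 0.0293% to 0.0350% at 0 h and 0.140% to 0.149% at 48 h. At 0 h the member with the highest level per exon length was Mcm10 at 10.5 RPKM and the lowest Ticrr at 0.0185 RPKM, and at 48 h the highest was Pcna at 21.04 RPKM and the lowest Fen1 at 0.580 RPKM, an uncertain level given the overlapping genes, followed by Cdc7 at 0.711 RPKM. Among the 48 h libraries, replicate 3 was the lowest for 34 of the 57 genes, where it was the lowest for 34.9% of all genes tested.

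Other replication genes, kept in lists outside the 57, had lower medians. Of 29 accessory factors, 28 were tested and 22 were higher at 48 h, with none lower by edgeR and a median log2 fold change of 1.18. Lrr1, Asf1b and Dscc1 had 10 counts in no 0 h library, so they passed the filter through 48 h alone and their calls are a description. Lrr1, which targets the helicase for removal, had no counts in any 0 h library and 45, 49 and 36 counts at 48 h, at least 12.9-fold higher with every 0 h library set at the floor of 3 counts. Asf1b, a histone chaperone, rose by 6.46 and Dtl, an adaptor for the destruction of Cdt1, by 5.93 on the log2 scale. Of 14 translesion and repair polymerases and their partners tested, 6 were higher and none lower, with a median of 0.24, led by Polq at 5.51, Rad18 at 3.33 and Polh at 1.62. Of the 11 mitochondrial DNA replication genes, 2 were higher (Mgme1 at 1.27 and Tfam at 0.50), 2 lower (Top1mt at -0.38 and Polrmt at -0.30) and 7 did not pass the test, with a median of -0.12. Those shares are near the 21.4% higher and 19.3% lower over all genes tested.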

How the data were processed

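The deposited files held raw counts of reads per gene, which the authors made per library. The submitters' processing notes name FastQC 0.11.5, Trim Galore 0.6.4, STAR 2.6, HTSeq 0.12.4, DESeq2 and mm10. The strand setting is not given in the sources used here. Reads in no gene stayed out of library totals. Genes were named from GENCODE M21. Members and lists were chosen with earlier results of these data known. Genes with 10 counts in at least 3 libraries were compared with edgeR 4.0.16 (R 4.3.3) by quasi-likelihood tests with TMM scaling and Benjamini-Hochberg adjustment, and called at an adjusted p under 0.05. In the 1 simulated data set it was tested on, false calls were well above the nominal share. Far fewer genes were changed there than were called here, so that share may not carry over. Adjusted p-values near the threshold, such as those of Mcm10, Pold2, Rpa3 and Pole4, are still less certain. CPM used TMM-scaled totals, and RPKM divided it by the kilobases of all annotated exons. Ratios used counts plus 0.5 and an exact permutation test. Genes picked by rule were the largest and smallest change of each complex, every gene not called higher and the genes of the ratios. The 3 largest called changes of each list were added. Remaining members are given by log2 fold change or its range, and some list genes for a caveat or a full count. Alternatives used DESeq2 1.42.0, limma 3.58.1, other scalings and filters, and left out each library. Replicate numbers did not pair libraries, which came from different mice (r between same-numbered deviations 0.0335, -0.0674 and -0.138). The edgeR p-values weigh the difference between the times against the spread between these libraries, estimated with information shared over genes. Permutation p-values rank that difference among relabelled libraries. Chtf8 is the symbol of 2 gene IDs, of which the longer was used. The floor of 3 counts is a detection limit and does not cover the counting error of genes above it.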

Additional observations from a re-analysis of the deposited data

How the results depend on the processing

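The count of 52 members higher at 48 h was the same with DESeq2, limma, other scalings and other filters, and 49 passed with a log2 fold change of at least 1. Leaving out each library in turn gave 46 to 52. The filter was applied again to the 5 remaining libraries, and whichever 48 h library was left out, Ticrr, Cdc7, Pole2, Fen1 and Clspn failed it and were not tested, which leaves 47. The count of 46 also reflects the call that Pold2 lost. With the genes tested kept the same, an alternative added after seeing the data, the count was 50 to 52 and 50 members kept the call in each of the 6 fits. In both versions Pold2 lost it without 48 h replicate 1 or 2, and in the latter Rpa3 lost it without 48 h replicate 2 (0.79, edgeR adjusted p = 0.0531). Over all 21 alternatives aside from the fold threshold, 45 members were tested and called higher in every one, 2 lost the call in at least 1 and 5 failed the filter in at least 1. The count of members lower was 0 to 1 without each library, and 0 with library size only or the fold threshold. Mitochondrial genes higher numbered 4 with library size only and 1 with the fold threshold. With library size only, the median log2 fold change of all genes was 0.20, Orc3 was 0.10 and Orc5 0.094, and Orc4 ranged from -0.0076 to 0.17 without each library.

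With the replicate number as a block, 52 members were higher and 1 lower. The difference for Cdt1/Gmnn was 1.67, which the block could not change with 3 libraries at each time. The block changed no member's call.

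The Chaf1b/Chaf1a difference ranged from -0.357 to 0.25 without each library. With the range of log2 RPKM in place of the SD, the change in spread was -3.52 for ORC, -1.20 for MCM2-7, -3.13 for GINS, -0.62 for polymerase alpha-primase, -1.69 for polymerase delta, -2.57 for polymerase epsilon, -1.75 for RFC and 0.018 for RPA. With the longest coding transcript as length, added after seeing the data, it was -0.60 for MCM2-7, -0.53 for polymerase alpha-primase, -0.57 for polymerase delta and 0.073 for RPA, and RPA ranged from -0.0953 to 0.068 without each library. The log2 summed level was 2.04, 2.24 with library size only and 2.22 without Mcm10, the latter added after seeing the data. Before the start only, 10 windows held the E2F motif, or 21.3%, against 2.16% of all genes with a window and 3.76% of tested genes with one. The causes of these shifts were not tested. Fold changes of genes with few 0 h counts carry more counting error. Among the members, standard errors of the log2 fold change were largest for Fen1, Rfc4, Gins3 and Orc1, at 0.35 each. Cdc7, at 4, 4 and 3 counts at 0 h, had 0.30.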
